A study of Mus musculus with 2 samples.

Results

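The metallothionein genes *Mt1* and *Mt2* and 8 genes of the NRF2 antioxidant response (*Prdx1*, *Txn1*, *Txnrd1*, *Srxn1*, *Gclc*, *Gclm*, *Gsr* and *Slc7a11*) were followed in adipose tissue macrophages (ATMs) of mice on a control diet and of mice fed a high-fat diet (HFD) overnight. These 10 genes, out of 31053 in the count matrices, were taken by symbol. Across all cells, glutathione reductase *Gsr* was the member with a level in HFD more than 1.5-fold above that in the control diet (CD), at 45.3 against 18.6 CPM (the UMIs of a gene per 1000000 UMIs of all genes, summed over cells). *Mt1*, the most abundant member, took up nearly the same share of UMIs on both diets, whereas *Mt2* was 1.31-fold higher in HFD. Among cell classes, *Slc7a11* was higher in *Lyz1*-high cells than in the rest and scarce in *Lyve1*+ cells, *Gsr* was highest in *Plac8*+ cells, and *Mt1* and *Prdx1* were lower in *Ccr2*+ than in *Ccr2*- cells.

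Metallothioneins are small cysteine-rich proteins that bind zinc and copper and can scavenge reactive oxygen, and their genes are induced by metals through the factor MTF1, acting on metal response elements (MREs), and by glucocorticoids. NRF2, encoded by *Nfe2l2*, is held in check by KEAP1 and, when released by oxidants or electrophiles, binds antioxidant response elements (AREs) with a small MAF protein. Its targets feed the thioredoxin system (*Txn1*, its reductase *Txnrd1*, the peroxidase *Prdx1* and sulfiredoxin *Srxn1*, which repairs overoxidized peroxiredoxins) and the glutathione system (the cystine importer *Slc7a11*, the glutamate-cysteine ligase subunits *Gclc* and *Gclm*, and *Gsr*, which regenerates reduced glutathione). Macrophages use both systems against the oxidants that they make and take up.

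Male C57/BL6 mice aged 8 to 12 weeks received CD (11% of calories from fat) or HFD (58%) overnight, to ask how lipid intake acts on ATMs. Epididymal fat was digested enzymatically, and cells sorted as CD45+ F4/80+ with low or no Ly6C, and without T, B, eosinophil or neutrophil lineage markers, went into droplet-based scRNA-seq with 10x Genomics 3′ V2 chemistry. Cells of 3 mice were pooled for each diet into 1 library, so neither diet had a replicate. No p-value was therefore computed, and intervals below are 95% intervals for counting error, which leave out differences between cells, mice and library preparations. Cells with 200 to 3500 genes and at most 10% mitochondrial UMIs were kept, 2364 of 4459 barcodes in CD and 2021 of 3163 in HFD, with medians of 4491 and 2792 UMIs. The libraries shared 14 barcodes. At least 99.9% of kept cells of each library held a UMI of 8 macrophage markers, whereas endothelial markers were found in 2.66% of CD and 2.97% of HFD cells, stromal markers in 3.21% and 1.04%, adipocyte markers in 5.46% and 3.17%, neutrophil markers, mainly *Mmp9*, in 35.8% and 25.6%, and lymphoid markers in 0.465% and 0.346%. Hemoglobin UMIs were found in 26.4% of CD cells and 7.82% of HFD cells.

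The metallothionein genes lie side by side on chromosome 8 of GRCm38, *Mt2* (ENSMUSG00000031762) at 94172664 to 94173568 and *Mt1* (ENSMUSG00000031765) at 94179082 to 94180327, on the plus strand and 5513 bases apart. In the thioredoxin system, *Prdx1* (ENSMUSG00000028691) lies on chromosome 4 at 116685544 to 116700822, *Txn1* (ENSMUSG00000028367) on chromosome 4 at 57943373 to 57956411, *Txnrd1* (ENSMUSG00000020250) on chromosome 10 at 82833951 to 82897712 and *Srxn1* (ENSMUSG00000032802) on chromosome 2 at 152105516 to 152111376. In the glutathione system, *Gclc* (ENSMUSG00000032350) lies on chromosome 9 at 77754535 to 77794485, *Gclm* (ENSMUSG00000028124) on chromosome 3 at 122245557 to 122270732, *Gsr* (ENSMUSG00000031584) on chromosome 8 at 33652523 to 33698163 and *Slc7a11* (ENSMUSG00000027737) on chromosome 3 at 49892526 to 50443614. *Txnrd1*, *Gclm*, *Gsr* and *Slc7a11* overlap other annotated genes on the same strand (*Eid3*, *Gm6061*, *Gm24727*, and *Gm37692* with *Gm37498*), so that UMIs in the shared stretches could have been assigned to either gene or dropped.

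Start regions of the 2 neighbouring metallothionein genes are shown. Whether they have a part in the differing ratios of HFD over CD of *Mt1* and *Mt2* was not tested. That of *Gclm* is shown as an example with both elements searched for, which *Mt2* and *Srxn1* also held. Each line gives the 250 bases before the RefSeq start site (GRCm38.p6), 5′ to 3′ on the strand of the gene, with every match to the ARE core TGACNNNGC or to the MRE core (TGCACNC or TGCGCNC) on either strand in capitals.
Mt1, chr8:94178839-94179088, plus strand: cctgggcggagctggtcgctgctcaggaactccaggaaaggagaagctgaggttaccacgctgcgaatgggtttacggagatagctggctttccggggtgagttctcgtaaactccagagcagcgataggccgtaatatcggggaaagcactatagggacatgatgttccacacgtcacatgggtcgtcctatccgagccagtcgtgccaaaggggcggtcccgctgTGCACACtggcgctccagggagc
Mt2, chr8:94172368-94172617, plus strand: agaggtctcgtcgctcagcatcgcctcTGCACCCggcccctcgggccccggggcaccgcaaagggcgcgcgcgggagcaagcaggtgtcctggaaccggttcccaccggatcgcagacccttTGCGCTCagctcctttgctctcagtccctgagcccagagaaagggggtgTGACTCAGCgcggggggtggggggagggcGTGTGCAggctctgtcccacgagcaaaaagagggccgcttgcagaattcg
Gclm, chr3:122245307-122245556, plus strand: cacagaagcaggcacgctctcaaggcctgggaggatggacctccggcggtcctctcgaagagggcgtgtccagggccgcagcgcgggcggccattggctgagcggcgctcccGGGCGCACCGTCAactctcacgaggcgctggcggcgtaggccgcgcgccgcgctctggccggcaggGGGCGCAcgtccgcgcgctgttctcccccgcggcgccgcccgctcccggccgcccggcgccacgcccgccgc
With the 50 bases after the start counted, *Mt1* had 3 MRE matches and *Mt2* 4. Of these, 1 of *Mt1*, beginning 23 bases before the start, and 3 of *Mt2* lie in the stretch shown. *Mt2* had 1 ARE match, TGACTCAGC, beginning 79 bases before the start, and *Mt1* none in the 300 bases searched. Bases beyond this window were not searched, so elements further from the start site used here would be missed. In *Gclm*, the ARE match GCACCGTCA (minus strand) began 134 bases before the start, and the capitals there run together because an MRE match overlaps it. With the 50 bases after the start, 10 windows of 8 members were searched, with none for *Gclc* and *Gsr*. The ARE core was in 5 of them (*Mt2*, *Prdx1*, *Gclm*, *Srxn1* and 1 of 3 *Txnrd1* start sites) and the MRE core in 4 (*Mt1*, *Mt2*, *Gclm* and *Srxn1*). Among all 32851 windows of the same length, 12.4% held the ARE core and 25.7% the MRE core. A match shows the letters and not that a factor binds there.

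Together the 10 members made up 0.295% of all UMIs in CD and 0.318% in HFD, and *Mt1* alone gave 59.97% and 57.8% of these. *Mt1* counted 21762 UMIs in CD and 14864 in HFD, or 1772 and 1838 CPM. *Prdx1* followed with 631 and 664 CPM, *Txn1* with 293 and 327, and *Mt2* with 148 and 195. The other 6 members were sparse, between 10.7 (*Slc7a11*) and 29.0 (*Txnrd1*) CPM in CD and between 15.1 (*Slc7a11*) and 45.3 (*Gsr*) in HFD. UMIs here count 3′ ends of transcripts, so gene length does not enter these levels, although capture can differ between genes.

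**Figure D1:**
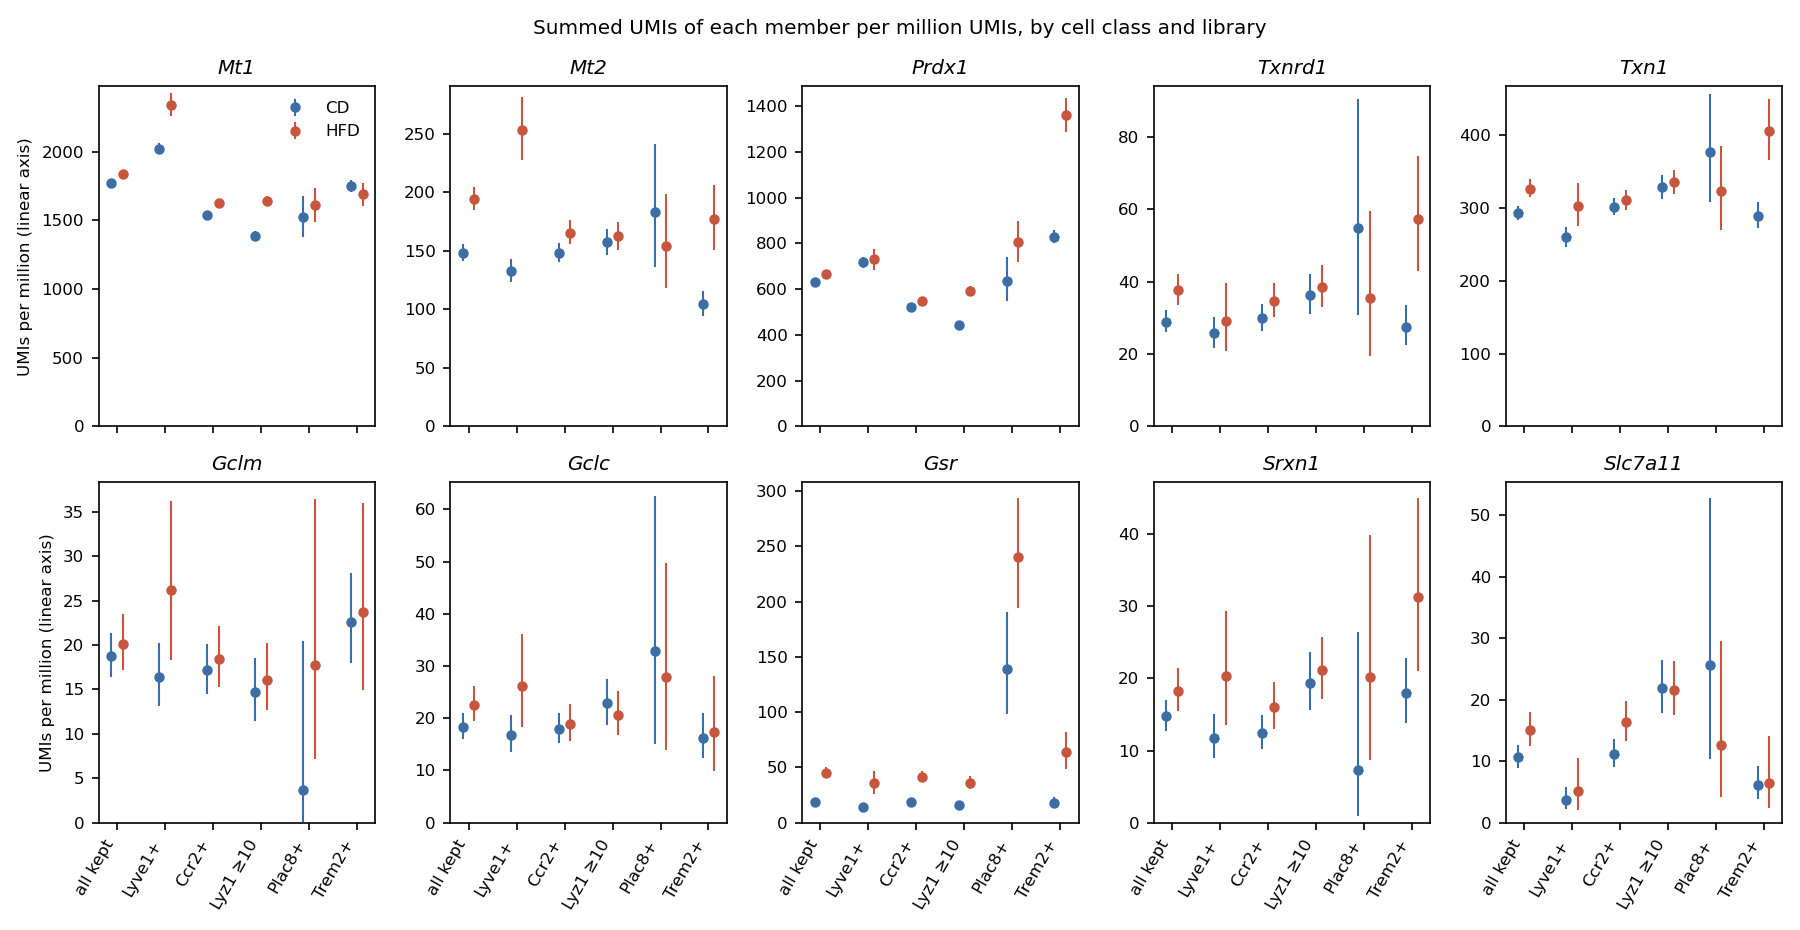
Level of each member in CPM (linear axes, 1 panel a gene) in all kept cells and in the 5 cell classes, CD in blue and HFD in red. Bars are 95% exact Poisson intervals for counting error; the points of *Gsr* in *Plac8*+ cells (139 in CD and 240.4 in HFD) stand above all other classes.

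All 10 members had a ratio of HFD over CD above 1 over all kept cells, 8 of them with an interval above 1, yet the differences were mostly small. The share of all tested genes with a ratio or an interval above 1 was not counted, so these counts have no background. One of the 8 intervals, that of *Prdx1*, rested on single cells. Without the cell with most *Prdx1* in each library, its log2 ratio was 0.05 (-0.01 to 0.10), an interval that included 0. Under other settings, 5 of the 10 log2 ratios passed below 0 at least once, down to -0.19 for *Prdx1* (below 0 in 6 of 16 settings, the lowest after thinning), -0.01 for *Mt1* with at least 1000 genes a cell, and -0.04 for *Gclm*, -0.25 for *Srxn1* and -0.18 for *Slc7a11* without cells that had a UMI of a marker of another cell type. This filter counted hemoglobin and *Mmp9* UMIs too, and left 1002 CD and 1289 HFD cells. The highest values of these 5 ratios were 0.41 for *Prdx1*, 0.58 for *Srxn1* and 0.12 for *Mt1*, with the CD class weights in HFD. They were 0.86 for *Gclm* after thinning and 1.01 for *Slc7a11* without the top 1% of its cells. *Gsr* was the 1 member of 10 that was more than 1.5-fold higher, where 3.8% of the 8708 genes with at least 100 UMIs were, and no member was more than 1.5-fold lower, as 7.11% of genes were. *Gsr* counted 228 UMIs in CD and 366 in HFD, a log2 ratio of HFD over CD of 1.29 (1.04 to 1.53), and its ratio was above that of 99.5% of tested genes. *Slc7a11* was next, with 131 UMIs in CD and 122 in HFD, 10.7 and 15.1 CPM, and a log2 ratio of 0.50 (0.13 to 0.87). With the classes of CD given their CD weights in HFD, the log2 ratio of *Slc7a11* was 0.04, whereas that of *Gsr* was 1.16. Without every cell that had a UMI of a marker of another cell type, that of *Gsr* was 1.41.

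*Mt2* had 1823 UMIs in CD and 1574 in HFD, a log2 ratio of 0.39 (0.29 to 0.49), against 0.05 (0.02 to 0.08) for its neighbour *Mt1*. In the thioredoxin system, *Txnrd1* (356 and 304 UMIs) had a log2 ratio of 0.38 (0.15 to 0.60), *Txn1* of 0.16 (0.08 to 0.23) and *Prdx1* of 0.07 (0.02 to 0.12). *Srxn1*, with 181 and 148 UMIs, reached 0.31 (-0.01 to 0.63), an interval that included 0. Of the ligase subunits, catalytic *Gclc* had a log2 ratio of 0.30 (0.01 to 0.59) and regulatory *Gclm* one of 0.11 (-0.19 to 0.40). The median over the 10 members was 0.31 on the log2 scale, against -0.01 over all tested genes.

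**Figure D2:**
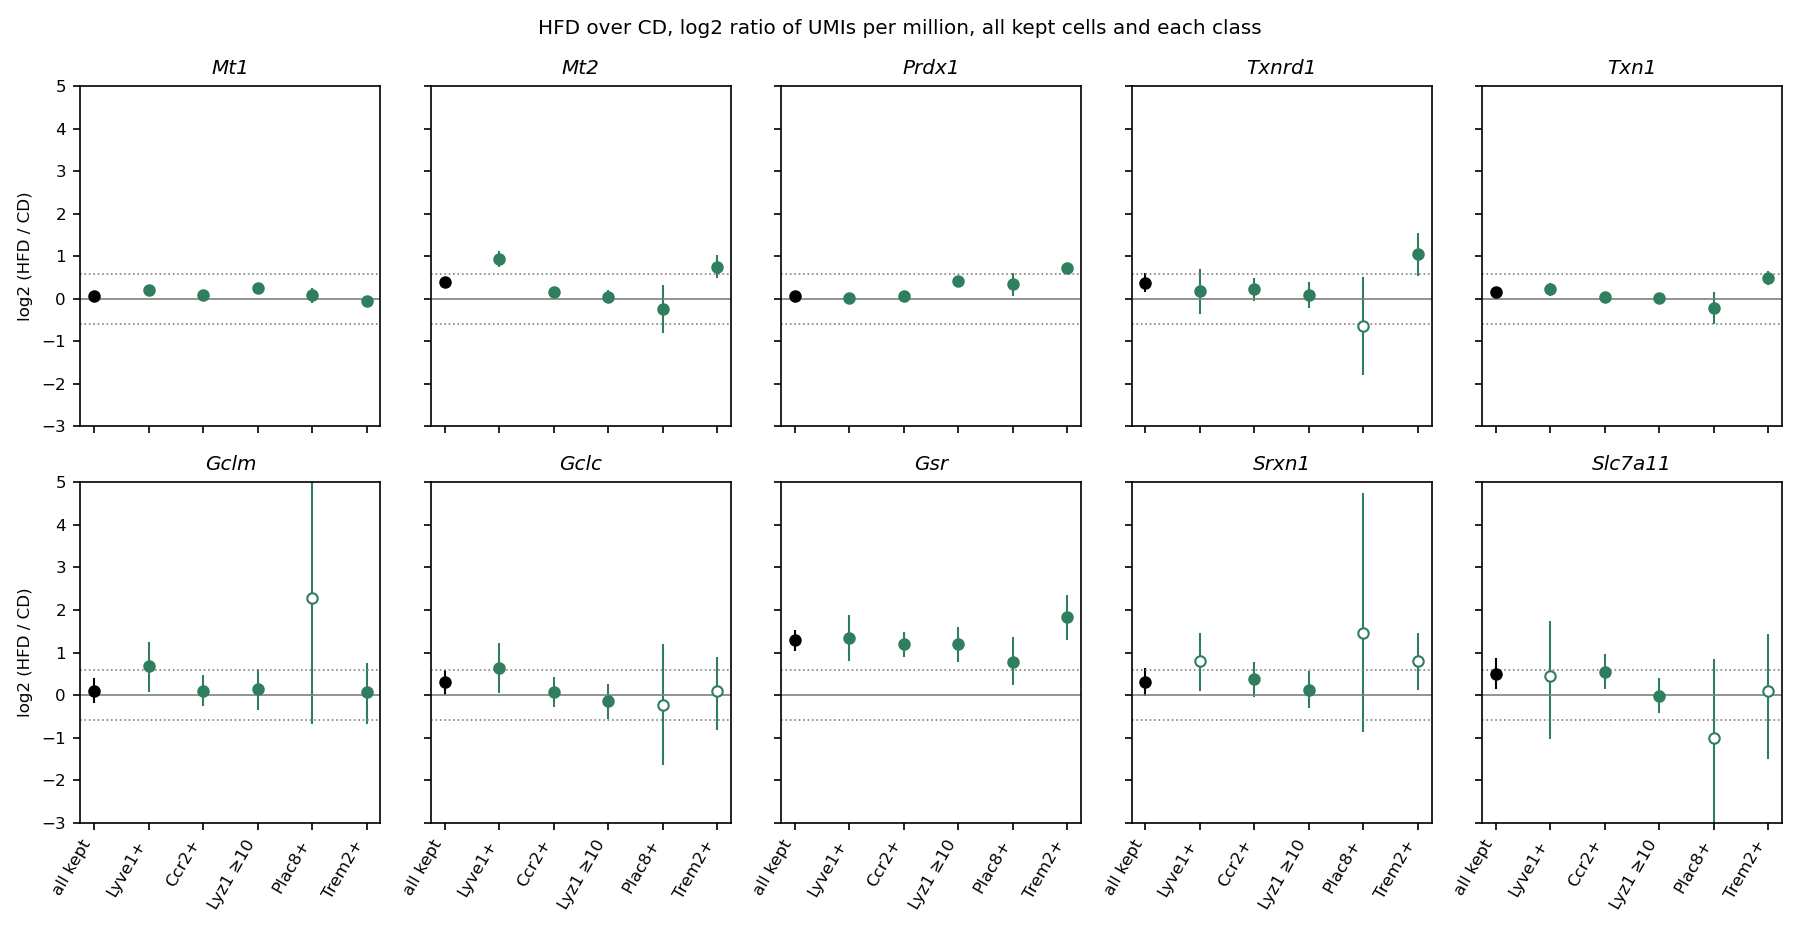
Log2 ratio of HFD over CD (CPM) of each member, in all kept cells (black) and in each cell class (green). Bars are 95% intervals for counting error, cut off at the panel edge where they are longer, dotted lines mark 1.5-fold, and open points have under 100 UMIs in both libraries together; *Gsr* lies above the upper dotted line in all 6 positions.

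Since cells differed in depth, detection was compared after each cell had been thinned to 800 UMIs, which left out 30 CD and 147 HFD cells. *Mt1* was then seen in 65.4% of CD cells and 66.9% of HFD cells, *Prdx1* in 39.4% and 35.8%, *Txn1* in 19.2% and 19.6% and *Mt2* in 9.04% and 11.7%. *Gsr* was seen in 1.46% (1.01 to 2.03) of CD and 2.99% (2.27 to 3.86) of HFD cells. For the other 5 members the share lay between 0.728% and 1.93% in CD and between 0.961% and 2.61% in HFD. Without thinning, *Prdx1* was seen in 85.1% of the deeper CD cells and in 70.8% of HFD cells. No cell type in this sort was known to lack these transcripts, so the part of free RNA in these shares was not measured.

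*Mt2* UMIs were spread unevenly. In CD, the 24 cells with most *Mt2* held 23.3% of its UMIs, and the 21 highest HFD cells 21.3%, whereas the same numbers of cells held 6.68% and 8.41% of *Mt1* UMIs. After thinning, *Mt2* was found in 11.5% of CD cells with *Mt1* and 4.46% of those without, and in 14.8% and 5.48% of HFD cells. As a description over cells of equal depth, the UMIs of the 2 genes correlated with r = 0.22 over 2334 CD cells and r = 0.39 over 1874 HFD cells.

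To follow the members across ATMs, cells were grouped by a UMI of *Lyve1* (a hyaluronan receptor found on resident perivascular macrophages), *Ccr2* (a chemokine receptor of monocytes), *Plac8* (found in monocytes) or *Trem2* (a lipid-sensing receptor of macrophages), and by at least 10 UMIs of *Lyz1*. *Lyve1*+ cells numbered 1172 in CD and 415 in HFD, *Ccr2*+ cells 1326 and 1131, *Lyz1*-high cells 555 and 672, *Plac8*+ cells 42 and 73 and *Trem2*+ cells 638 and 168. A class is the cells that showed its gene and does not stand for an ATM subset. The classes overlap, and between 44.6% and 97.5% of the cells of a class belonged to a second class. They also differ in depth, because a deeper cell is more likely to show a marker. *Ccr2*+ cells had a median of 5929 UMIs in CD, against 3131 in the rest, and 4965 against 1546 in HFD, and *Lyve1*+ cells of HFD had 2299 against 3082. The deepest class was *Lyz1*-high, with 8205 against 3707 in CD and 6609 against 1839 in HFD.

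*Mt1* was highest in *Lyve1*+ cells in both libraries, at 2024 (1986 to 2062) CPM in CD and 2344 (2264 to 2426) in HFD. In CD, *Trem2*+ cells followed at 1753, then *Ccr2*+ cells at 1540 *Plac8*+ cells at 1523 and *Lyz1*-high cells at 1388. The interval of *Plac8*+ cells, with 416 UMIs, overlapped those of both neighbours. A single *Plac8*+ cell held 113 of these UMIs together with 525 UMIs of stromal and 7 of macrophage markers, and without it *Plac8*+ cells stood at 1148 (1023 to 1285) CPM, below *Lyz1*-high cells. In HFD the other 4 classes lay between 1609 and 1689 with overlapping intervals. In cells without *Ccr2*, *Mt1* reached 2333 CPM in CD and 2521 in HFD, so that the log2 ratio of *Ccr2*+ cells over the rest was -0.60 and -0.63. This was close to the 1.5-fold limit, which it passed in 6 of 16 other settings in CD and 8 of 16 in HFD. With each cell put in 1 class, which leaves in *Ccr2*+ the cells without the other 4 markers, it was -0.15 and -0.14. Splitting the cells by both markers, *Mt1* stood at 2361 in *Lyve1*+*Ccr2*- and at 2273 in *Lyve1*-*Ccr2*- CD cells, against 1437 in *Lyve1*-*Ccr2*+ cells, with 2715, 2434 and 1563 in HFD. *Ccr2*- cells were high in *Mt1* whether or not they had *Lyve1*, and they were also the shallower cells. Immediate-early and heat-shock genes tied to tissue dissociation moved with these classes, with 4 of 11 (*Jun*, *Egr1*, *Ier3* and *Hspa1a*) more than 1.5-fold higher in *Lyve1*+ cells of both libraries and 6 of 11 lower in *Ccr2*+ cells, against 6.4% and 10.7% of all genes, and their part in the *Mt1* pattern was not tested.

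Across classes *Mt2* ran differently from *Mt1* in CD, whereas in HFD both were highest in *Lyve1*+ and next in *Trem2*+ cells. In CD *Mt2* was lowest in *Trem2*+ cells, at 105 CPM, and in *Lyve1*+ cells, at 133, and in HFD *Lyve1*+ cells held its top level, 253 (228 to 281), above the 154 to 177 of the other classes. Within *Lyve1*+ cells *Mt2* was thus 1.90-fold higher in HFD (715 and 349 UMIs), a log2 ratio of 0.93 (0.74 to 1.12), and within *Trem2*+ cells 1.69-fold higher (380 and 164 UMIs), 0.76 (0.48 to 1.02). In *Ccr2*+ cells the log2 ratio was 0.16 (0.04 to 0.28) and in *Lyz1*-high cells 0.05 (-0.10 to 0.20). As a share of the UMIs of both metallothioneins, *Mt2* went from 6.17% (5.74 to 6.63) in CD to 9.76% (8.80 to 10.8) in HFD in *Lyve1*+ cells and from 5.65% to 9.49% in *Trem2*+ cells. The interval of HFD overlapped that of CD in *Ccr2*+ cells, where the shares were 8.78% and 9.23%. The share was lower in HFD in *Lyz1*-high cells (10.2% and 9.01%) and in *Plac8*+ cells (10.7% and 8.75%), with overlapping intervals in both classes. Within *Plac8*+ cells the log2 ratio of *Mt2* was -0.25 (-0.81 to 0.32), and a single CD cell held 25 of the 50 *Mt2* UMIs of this class. Cells without *Ccr2* showed the contrast too, with *Mt2* at 149 CPM in CD and 289 in HFD, whereas *Ccr2*+ cells held 148 and 165. The share is a ratio of 2 genes and does not use the total UMIs of a cell. Which cells enter a class does depend on depth, and *Lyve1*+ cells had a median of 4052.5 UMIs in CD and 2299 in HFD. With classes read from thinned cells, the log2 ratio of *Mt2* between diets was 1.33 in *Lyve1*+ and 1.42 in *Trem2*+ cells. In both classes it was past 1.5-fold in 16 of 16 other settings. Beyond these settings the part of depth in this contrast was not tested.

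**Figure D3:**
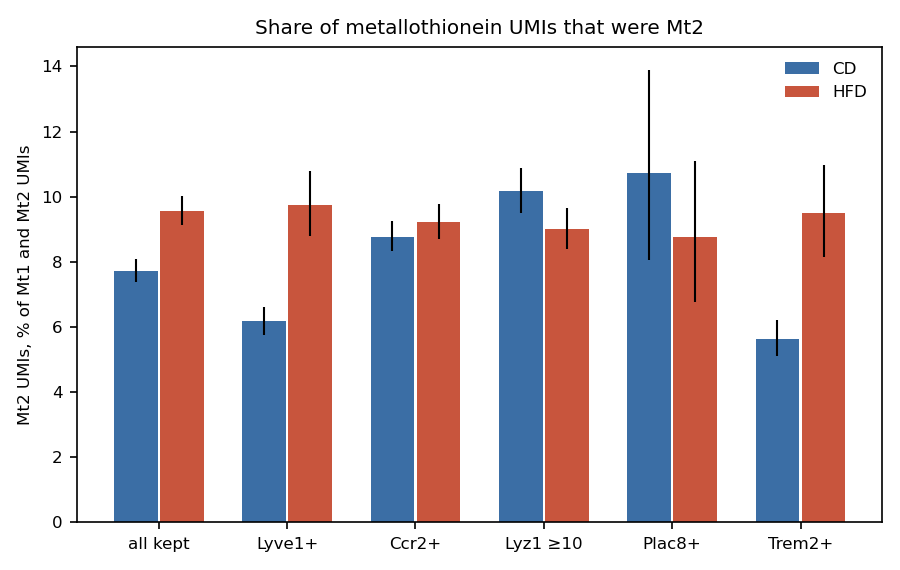
*Mt2* UMIs as a percentage of *Mt1* and *Mt2* UMIs together, in all kept cells and in each cell class, for CD (blue) and HFD (red). Error bars are 95% exact binomial intervals; the HFD bar is above the CD bar without overlap of intervals in all kept cells (9.58% against 7.73%), *Lyve1*+ and *Trem2*+ cells.

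Within *Lyve1*+ cells, 4 of the 8 members with enough UMIs were more than 1.5-fold higher in HFD, against 4.79% of tested genes, and none was lower, against 6.8%. Beside *Mt2* these were *Gsr* (75 and 49 UMIs) at 1.35 (0.80 to 1.89) on the log2 scale, *Gclm* (88 and 36 UMIs) at 0.67 (0.07 to 1.25) and *Gclc* (90 and 36 UMIs) at 0.64 (0.04 to 1.21), the last 2 close to the limit of 0.58. *Srxn1* had a ratio of 0.79 (0.10 to 1.46) there but under 100 UMIs. Within *Trem2*+ cells, 4 of 7 were higher against 7.83% of tested genes and none lower against 14.6%. They were *Mt2*, *Gsr* at 1.83 (1.29 to 2.36), *Txnrd1* at 1.05 (0.54 to 1.55) and *Prdx1* at 0.71 (0.62 to 0.81). Without cells that had a UMI of a marker of another cell type, *Txnrd1* was at 0.49 and *Prdx1* at 0.13, and *Prdx1* was past the limit in 8 of 16 other settings. That filter, which counted hemoglobin and *Mmp9* UMIs too, left 255 CD and 106 HFD *Trem2*+ cells. HFD *Trem2*+ cells numbered 168, and without the 1 HFD and the 1 CD cell with most *Prdx1* the ratio of *Prdx1* was 0.49 as well.

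Within *Ccr2*+ cells, *Gsr* alone of 10 members was more than 1.5-fold higher, at 1.19 (0.90 to 1.49), against 3.08% of genes, and none was lower, against 6.71%. Within *Lyz1*-high cells it was again *Gsr*, at 1.19 (0.79 to 1.60), against 2.99% higher and 4.67% lower among all genes. Within *Plac8*+ cells *Gsr* was the 1 of 5 tested, at 0.79 (0.23 to 1.37), against 5.4% higher and 5.75% lower. Thus *Gsr* was higher in HFD in each of the 5 classes as defined here, which share cells. With each cell put in 1 class its ratio in *Ccr2*+ cells was 0.48, and with classes read from thinned cells its ratio in *Plac8*+ cells was 0.12, neither past 1.5-fold.

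*Gsr* also marked a class. In *Plac8*+ cells it reached 139 (98.5 to 191) CPM in CD and 240.4 (194 to 294) in HFD, against 15.8 and 35.2 in the remaining cells of each library, log2 ratios of 3.14 (2.59 to 3.65) and 2.77 (2.42 to 3.11). It was the 1 member of 10 that was more than 1.5-fold higher in *Plac8*+ cells of both libraries, where 2.99% of 6391 genes were, and no member was lower, where 6.34% were. *Gsr* was seen in 12 of 42 *Plac8*+ cells in CD and in 32 of 73 in HFD. In the other 4 classes *Gsr* lay between 13.97 and 18.3 CPM in CD and between 35.6 and 63.7 in HFD. Of 5 neutrophil markers, 4 were at 0 in the *Plac8*+ cells of each library, and all 5 lymphoid markers were at 0 in them. Endothelial markers were found in 14.3% of CD (6 of 42) and 2.74% of HFD *Plac8*+ cells, and their part in the level of *Gsr* was not tested. Without all *Plac8*+ cells, the log2 ratio of *Gsr* between HFD and CD was 1.16. Without the 1% of cells with most *Gsr* in each library, its ratio in *Plac8*+ cells over the rest was 1.11 in CD and 1.27 in HFD.

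*Prdx1* was lower in *Ccr2*+ cells, at 523 against 891 CPM in the rest in CD and 546 against 1046 in HFD, log2 ratios of -0.77 (-0.83 to -0.70) and -0.94 (-1.02 to -0.86). With *Mt1* and *Srxn1* (-0.71 and -0.68), it made 3 of 10 members more than 1.5-fold lower in *Ccr2*+ cells of both libraries, where 10.7% of genes were, and no member was higher, where 4.91% were. *Srxn1* rested on 181 CD and 148 HFD UMIs. With each cell put in 1 class the ratio of *Prdx1* was -0.32 and -0.25, with the mean of cells' own CPM -0.54 and -0.44, and after thinning -0.57 and -0.57, none of them past 1.5-fold. In *Trem2*+ cells *Prdx1* stood at 830 against 547 CPM in CD and at 1360 against 574 in HFD, log2 ratios of 0.60 and 1.24. It was the 1 member higher in *Trem2*+ cells of both libraries, where 0.908% of genes were, and *Slc7a11* the 1 member lower, where 1.67% were. The CD ratio of *Prdx1* was close to the limit, which it passed in 8 of 16 other settings, with 0.30 after thinning. Its HFD ratio passed the limit in 16 of 16.

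In each library a single *Trem2*+ cell held far more *Prdx1* than any other. The CD cell with most *Prdx1* held 272 UMIs of it, against 62 in the next cell, and the HFD cell 292 against 87. Both were *Trem2*+ with 4 *Trem2* UMIs, *Lyz1*-high with 34 and 41 UMIs, and without a UMI of *Lyve1*, *Ccr2* or *Plac8*, and their barcodes differed. They were deep, with 9836 and 14021 UMIs, and low in mitochondrial UMIs at 3.66% and 1.63%. *Prdx1* made up 2.77% and 2.08% of their UMIs, 45.4-fold and 33.1-fold its level in the other cells of the library.

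Other members were also counted there. The 2 cells had been picked after the data had been seen, so these counts are a description. The CD cell had the most UMIs, alone or tied, for *Txn1* (21), *Gclm* (10), *Gclc* (7) and *Srxn1* (8), and the HFD cell for *Txnrd1* (7) and *Srxn1* (13). *Srxn1* was 57.7-fold above the other cells in the CD cell (95% interval 24.9 to 114) and 55.4-fold in the HFD cell (29.5 to 94.8). *Slc7a11* counted 4 UMIs in the CD cell and 0 in the HFD cell, and *Mt2* 0 in both. The CD cell held 1 UMI of *Gsr* and 2 of *Txnrd1*. The HFD cell held 16 of *Txn1* and 6 of *Gsr*, but 1 of *Gclm* and 0 of *Gclc*. Both cells lay above the median depth of their library, and how many of all genes had their top count in them was not counted. Of the further antioxidant genes, *Esd* was at its top count in both, with 26 and 21 UMIs. *Fth1* (ferritin heavy chain) counted 409 in the CD cell, the most of any cell, but 125 in the HFD cell, where 9 cells had more. *Ftl1* (ferritin light chain) counted 479 in the HFD cell, the most of any cell, but 213 in the CD cell, where 16 cells had more. *Nfe2l2* was at 4.58-fold in the CD cell and 0.603-fold in the HFD cell. Not all of this list was high, and *Cat* and *Gpx3* had 0 UMIs in both cells. *Mt1*, with 15 and 9 UMIs, stood in them at 0.861-fold and 0.349-fold the level of the other cells. Without these 2 cells, the log2 ratio of *Prdx1* in *Trem2*+ cells over the rest was 0.47 in CD and 0.89 in HFD, past 1.5-fold in HFD alone. That of HFD over CD within *Trem2*+ cells was 0.49. The ratio of *Srxn1* in *Ccr2*+ cells was -0.55 and -0.24, past 1.5-fold in neither library, whereas that of *Prdx1* in *Ccr2*+ cells was -0.64 and -0.72. With 1 such cell a library, no comparison between diets was made.

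**Figure D4:**
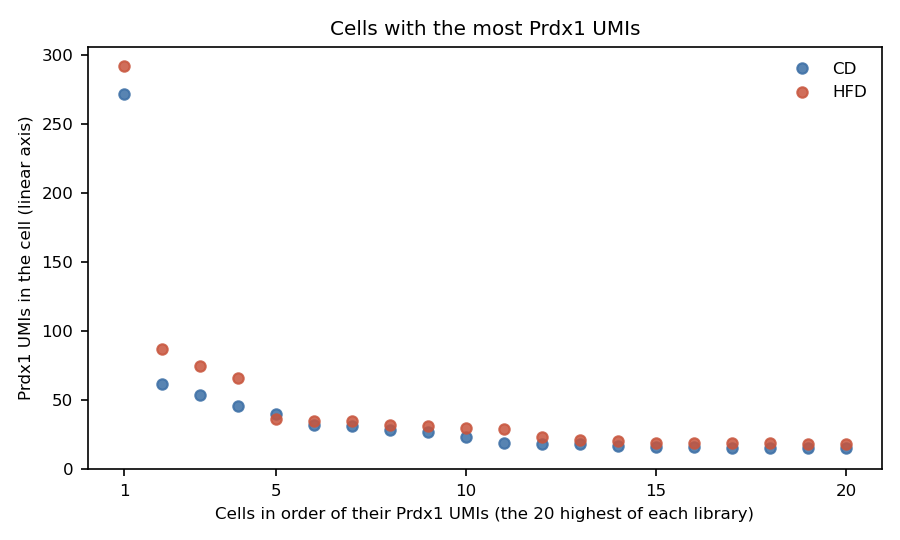
*Prdx1* UMIs (linear axis) in the 20 cells with most of them in each library, in order, CD in blue and HFD in red. A single cell stands far above the rest on each diet, at 272 UMIs in CD and 292 in HFD, with the following cells at 62 and 87.

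*Slc7a11*, which imports cystine in exchange for glutamate, differed between *Lyz1*-high and *Lyve1*+ cells in both libraries. *Lyz1*-high cells held 104 of its 131 CD UMIs and 99 of its 122 HFD UMIs, 21.8 and 21.5 CPM, against 3.59 and 6.59 in the remaining cells, log2 ratios of 2.61 (1.98 to 3.27) and 1.71 (1.04 to 2.43). It was the 1 member of 10 more than 1.5-fold higher in *Lyz1*-high cells of both libraries, against 4.12% of genes, and no member was lower, against 12.9%. In *Lyve1*+ cells it counted 20 UMIs in CD and 7 in HFD, 3.72 and 5.08 CPM against 16.1 and 17.1 elsewhere, log2 ratios of -2.11 (-2.87 to -1.41) and -1.75 (-3.10 to -0.66). No other member was lower in *Lyve1*+ cells of both libraries, where 3.33% of genes were, and none was higher, where 6.4% were. In *Trem2*+ cells it counted 22 and 6 UMIs, with log2 ratios of -1.05 and -1.32.

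Within *Lyz1*-high cells *Slc7a11* had a log2 ratio between diets of -0.02 (-0.43 to 0.39), whereas these cells made up 23.5% of CD and 33.3% of HFD cells. Within *Ccr2*+ cells the ratio was 0.55 (0.14 to 0.97), at 11.2 CPM in CD and 16.4 in HFD. In the other classes *Slc7a11* had under 100 UMIs. Outside *Lyz1*-high cells it stood at 3.59 CPM in CD and 6.59 in HFD. With the classes given their CD weights in HFD, its diet ratio over all cells was far smaller, as given above. Beyond this the part of the class mix was not tested. *Slc7a11* UMIs were held by few cells, 73 in CD and 85 in HFD, and at most 9 UMIs were found in a cell. Its partner in the transporter, *Slc3a2*, was abundant at 196 and 185 CPM and had a log2 ratio between diets of -0.08.

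**Figure D5:**
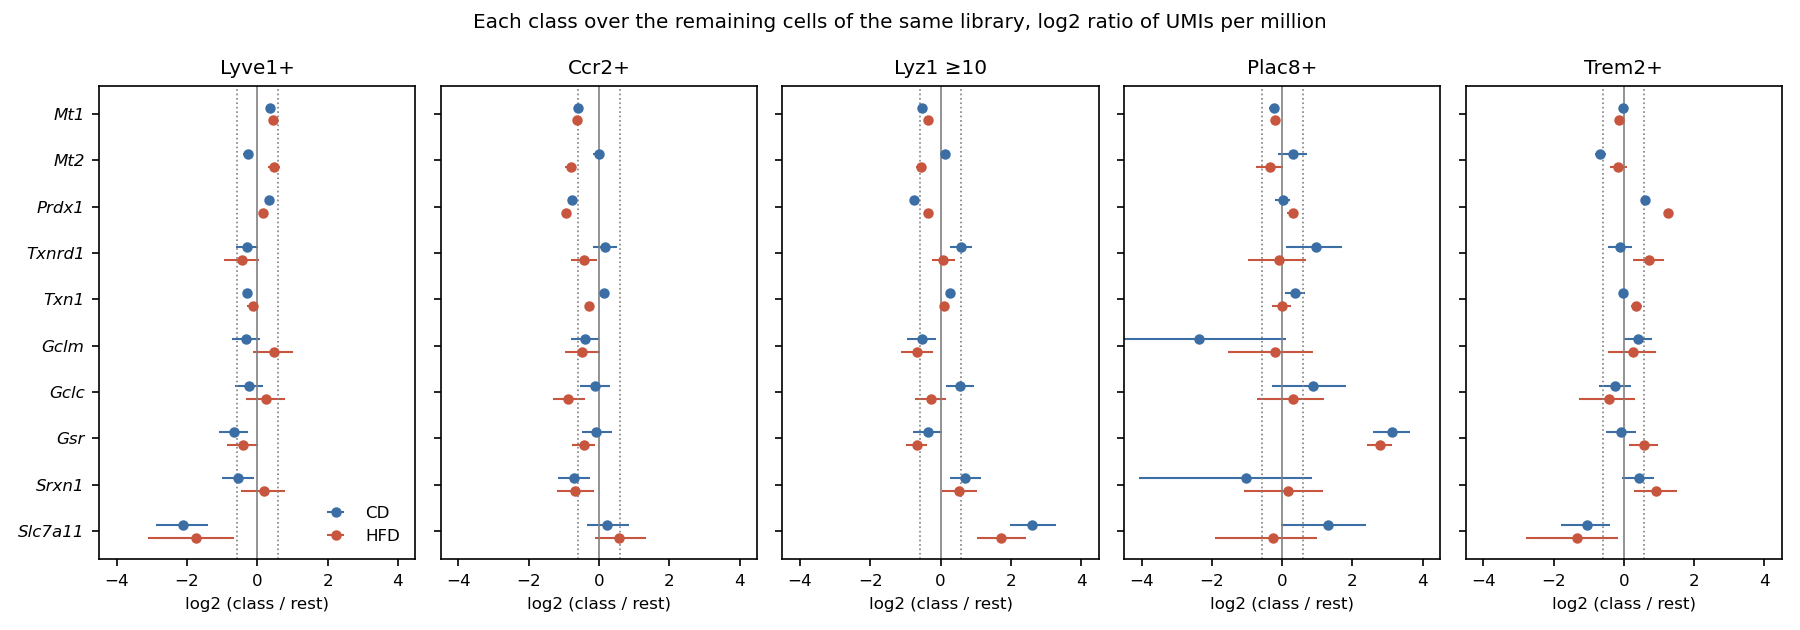
Log2 ratio of each member (CPM) in a class over the remaining cells of the same library, 1 panel a class, CD in blue and HFD in red. Bars are 95% intervals for counting error, cut off at the panel edge where longer, and dotted lines mark 1.5-fold; *Slc7a11* lies left of the lines in *Lyve1*+ and *Trem2*+ cells and right of them in *Lyz1*-high cells, and *Gsr* right of them in *Plac8*+ cells.

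Of the further NRF2 pathway and antioxidant genes, 39 of 43 had at least 100 UMIs, and none was more than 1.5-fold higher in HFD, whereas 7 were lower, against 3.8% and 7.11% of all tested genes, with a median log2 ratio of -0.04. *Esd* had the highest ratio, 0.41 (127 and 169 CPM), and *Osgin1* the lowest, -1.24 on 93 and 26 UMIs. *Prdx4*, an endoplasmic reticulum peroxiredoxin, was at -1.12 (86.9 and 39.9 CPM), *Mgst3* at -0.99 and *Blvrb*, biliverdin reductase B, at -0.82. *Nfe2l2* itself stood at 111 and 118 CPM (0.09), its inhibitor *Keap1* at 33.2 and 34.4 (0.05), and *Hmox1*, heme oxygenase, stood at 423 and 374 (-0.18). Across classes, 11 of 37 were lower and 2 higher in *Ccr2*+ cells of both libraries, where 10.7% and 4.91% of all genes were, among the lower *Hmox1* (-1.06 and -1.45), *Gstm1* (-1.62 and -1.53) and *Txnip* (-1.30 and -1.54), an inhibitor of thioredoxin. In *Lyve1*+ cells 6 of 37 were higher, against 6.4% of all genes, with *Mgst1* at 1.58 and 1.34 and *Hmox1* at 1.01 and 0.79, and 1 was lower, against 3.33%.

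Of 16 genes of zinc and metal handling with enough UMIs, none was past 1.5-fold between diets, and the extremes were the zinc importers *Slc39a6* (0.56) and *Slc39a10* (-0.44). *Mtf1*, the metal-responsive factor, stood at 10.1 CPM in CD and 13.2 in HFD, 0.39 (0.00 to 0.78) on the log2 scale. Its target *Slc30a1*, a zinc exporter, stood at 16.5 and 20.2 CPM, 0.29 (-0.02 to 0.59). For the lists that follow, 3.8% of all tested genes were more than 1.5-fold higher. Of 7 glucocorticoid-responsive genes, 2 were, *Fkbp5* at 1.26 (0.92 to 1.61) and *Sgk1* at 0.75, and *Klf9* was the lowest at -0.44. Of 7 genes of the ATF4 and amino acid response, *Cebpb* was higher at 1.11 (1.06 to 1.15), *Atf4* had a log2 ratio of 0.18 and *Atf3* the lowest, -0.25. Of 11 tissue dissociation genes, *Hspa1b* (1.48) and *Hspa1a* (0.71) were higher and *Ier3* was the lowest at -0.35.

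The genes whose levels over the 10 class and library combinations ran most like those of a member were picked among 7093 genes by Pearson's r of log2(CPM + 10). These points share cells, so r is a description. For *Mt1* these were *Lrch3* (r = 0.99), *Klhl9* (0.98) and *Scarb2* (0.97), for *Prdx1* the ferritin light chain *Ftl1* (0.97), *Atp6v1d* (0.97) and *Akr1a1* (0.95), and for *Slc7a11* *Traf5* (0.97), *Myo1g* (0.96) and the amino acid transporter *Slc38a1* (0.96).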

How the data were processed

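ATMs of 1 CD and 1 HFD library were analysed. The deposited files hold raw UMI counts, whole and not normalized, which the authors obtained from Cell Ranger 3.0.2 with the mm10 genome and Ensembl 93 genes. The deposited matrices held barcodes over 10% mitochondrial UMIs, which were left out. The barcode limits of the study's methods would keep 2364 CD and 1993 HFD cells. They are at least 200 genes, an upper gene limit set from quartiles, at most 10% mitochondrial UMIs and at most 7 UMIs per gene. No doublet caller was run, and doublets below the limit of 3500 genes remained.

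UMIs were summed over cells and divided by the summed total (CPM), with exact Poisson intervals, ratios with exact conditional binomial intervals and shares with Clopper-Pearson intervals, all at 95%, using scipy 1.17.1, numpy 2.4.6, pandas 2.3.3 and matplotlib 3.10.9 under Python 3.11.15. Depth and precision are given by the UMIs behind each value. Genes needed 100 UMIs in both groups together (for classes, in each library), and past 1.5-fold meant the ratio of levels, in both libraries for classes. Ratios and intervals were checked on simulated Poisson counts, the model that the intervals assume, without variation between cells. This check cannot show how the intervals hold where a few cells carry many UMIs of a gene. Positions are from GENCODE M21.

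All 10 members are named, with the highest and lowest ratio of each further list and the 3 genes most like *Mt1*, *Prdx1* and *Slc7a11*. Other list genes and the cells with most *Prdx1* were chosen after their values had been seen. The members and lists were chosen with earlier results of these data known. Alternatives changed cell limits, depth, scaling, single cells, other cell types and class rules.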

Additional observations from a re-analysis of the deposited data

Results flagged for a closer look

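*Mt2* in *Lyve1*+ cells against the remaining cells had a log2 ratio of -0.27 (-0.41 to -0.13) in CD and 0.47 (0.30 to 0.65) in HFD. In *Lyz1*-high cells it had 0.14 (0.00 to 0.27) in CD and -0.55 (-0.69 to -0.40) in HFD. *Txn1* in *Ccr2*+ cells had 0.15 (0.04 to 0.26) in CD and -0.28 (-0.41 to -0.16) in HFD. In each case the libraries lay on opposite sides of 0, and with 1 library per diet the difference was not tested.

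The barcodes left out for over 10% mitochondrial UMIs, 2043 in CD and 1120 in HFD with at least 200 genes, held *Mt2* at 146 CPM in CD and 227 in HFD, a log2 ratio of 0.64 (0.39 to 0.89). *Slc7a11* counted 17 UMIs in CD and 40 in HFD there, 7.57 and 41.7 CPM, and *Srxn1* counted 24 and 33, 10.7 and 34.4 CPM, both under the 100 UMIs required.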

How the results depend on the processing

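*Gsr* was the 1 member past 1.5-fold between diets over all cells, and its log2 ratio stayed between 1.10 and 1.43 under all 16 alternatives that recomputed it. The number of members past the limit was 2 with at most 20% mitochondrial UMIs, at least 1000 genes, or without the top 1% of cells of each gene, in each case with *Slc7a11*, 3 with the mean of cells' own CPM, which added *Mt2* and *Gclc*, and 0 with cells thinned to 800 UMIs, where *Gsr* had 98 UMIs. The ratio of *Slc7a11* ranged from -0.18, without cells with markers of other cell types, to 1.01. The 8 member and class combinations past the limit in both libraries became 5 with at most 2500 genes, 1 after thinning, and 4 without the top 1% of cells or without cells with markers of other cell types. The last filter counted erythroid markers and *Mmp9* too, and left 1002 CD and 1289 HFD cells. With erythroid markers and *Mmp9* not counted, 2088 CD and 1861 HFD cells were left and 8 combinations were past the limit. The 11 combinations past the limit between diets within a class became 1 after thinning and 6 without the top 1% of cells, with classes that do not overlap, or with classes read from thinned cells. After thinning few genes kept 100 UMIs, and ratios moved too. That of *Prdx1* was then 0.30 in CD *Trem2*+ cells, and in *Ccr2*+ cells it was not past 1.5-fold in either library. The part of each in these counts, and the cause of the other changes, was not tested. Among class ratios past 1.5-fold, 3 reversed, *Slc7a11* in HFD *Trem2*+ cells (0.18, thinned) and *Srxn1* in *Ccr2*+ cells (0.45 in CD, thinned, and 0.012 in HFD, mean of cells' own CPM). Of 37 ratios recomputed, 29 kept their sign under every alternative. The other 5 were ratios of HFD over CD over all cells, with lowest values of -0.19 (*Prdx1*), -0.01 (*Mt1*), -0.04 (*Gclm*), -0.25 (*Srxn1*) and -0.18 (*Slc7a11*). Without *Plac8*+ or *Trem2*+ cells, without the 2 cells with most *Prdx1*, without the CD cell with most *Mt1*, and with erythroid markers and *Mmp9* not counted were chosen after seeing the data.

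Without thinning, the shares of cells with a UMI in CD and HFD were 93.7% and 90.3% (*Mt1*), 26.8% and 29.2% (*Mt2*), 85.1% and 70.8% (*Prdx1*), 13.2% and 11.97% (*Txnrd1*), 64.1% and 53.7% (*Txn1*), 8.76% and 7.22% (*Gclm*), 7.83% and 7.82% (*Gclc*), 7.91% and 12.4% (*Gsr*), 6.30% and 5.89% (*Srxn1*), and 3.09% and 4.21% (*Slc7a11*). No paired analysis was possible because each diet has 1 library.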
